A study of Rattus norvegicus with 6 samples.

Results

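Sphingosine-1-phosphate (S1P) receptors and the proteins that make, export and remove S1P were examined in primary rat brain microvascular endothelial cells (rBMECs) exposed to homocysteine (Hcy). The members were the rows of the count table whose gene name was S1pr1, S1pr2, S1pr3, Sphk1, Sphk2, Spns2, Sgpl1 or Sgpp1, which gave 8 of 33566 genes. Hcy is an amino acid formed in methionine metabolism. The Hcy group was labelled as treated with 100 µM Hcy for 24 h, and the vehicle group (Veh) received the water in which Hcy was dissolved. The labels also name a 50 µM Hcy solution in the treatment protocol, so the dose is given here only as labelled. Each group had 3 libraries, described as biological replicates. Cells of both groups came from the brain cortex of SD rats aged 18 to 22 days, were cleared of other cells with a screening solution and were treated after a single passage. How many animals entered each culture is not given in the sources used here.

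S1P is a lipid that signals through G protein-coupled receptors on the cell surface. Sphingosine kinases make it from sphingosine, the exporter Spns2 carries it out of endothelial cells, and it is removed by an irreversible lyase or by phosphatases that return it to sphingosine. In brain endothelium, signalling through S1pr1 is known for keeping junctions closed, whereas S1pr2 and S1pr3 also couple to other classes of G protein.

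The libraries held 14024997 to 16764584 counts, and 14603 genes had at least 10 counts summed over the 6 libraries and were tested. A level of 3 counts corresponded to 0.178 to 0.215 CPM, which are counts per 1000000 counts of the TMM-scaled library size. Of the 10 endothelial markers looked up, 9 were found by symbol, with Cdh5, the adhesion protein of endothelial junctions, at a mean of 1961 CPM in Hcy and 1796 CPM in Veh. Of the 8 brain barrier markers, Slc2a1 was at 497 CPM in Hcy and 621 CPM in Veh, with every Hcy library lower and an adjusted p of 0.0536 by edgeR's quasi-likelihood test, and Ocln was at 159 and 165 CPM. Mfsd2a and Slco1a4 were at only 3.08 and 3.57 CPM in Hcy and 4.18 and 5.17 CPM in Veh, again with every Hcy library lower. Sox17 and Lef1 had every Hcy library higher, at 128 and 24.0 CPM in Hcy and 105 and 22.6 CPM in Veh, and Cldn5 was listed at 0 in all 6 libraries. The leukocyte markers summed to at most 0.900 CPM in any library, with Ptprc, Cx3cr1 and P2ry12 at 0. Smooth muscle markers summed to 674 to 702 CPM in Hcy and to 1120 to 1348 CPM in Veh, and 3 of the 5 fell in Hcy by edgeR's quasi-likelihood test. Most of these sums was Tagln, at means of 582 CPM in Hcy and 1071 CPM in Veh. Myh11 and Des, which did not fall at an adjusted p of 0.05, were at only 1.20 and 0.679 CPM in Hcy and 1.23 and 0.457 CPM in Veh. Veh replicate 3 stood apart from the other Veh libraries on the second principal component, which held 26.2% of the variance. In bulk libraries, fewer cells of a type and less RNA per cell cannot be told apart.

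The promoter windows of S1pr1, S1pr3 and Sphk2 are shown because S1pr1 was the most abundant member and S1pr3 and Sphk2 were the members whose groups did not overlap. Each is the 250 bases before the gene's start in RefSeq's GRCr8 annotation, printed 5′ to 3′ on the gene's strand. Capitals mark CACCC, the core of the box that KLF transcription factors are known to bind, or GGGTG, which is the same box on the opposite strand. The S1pr1 window is chr2:206314071-206314320 on the minus strand, the S1pr3 window chr17:13946014-13946263 on the minus strand and the Sphk2 window chr1:105321638-105321887 on the minus strand.
S1pr1: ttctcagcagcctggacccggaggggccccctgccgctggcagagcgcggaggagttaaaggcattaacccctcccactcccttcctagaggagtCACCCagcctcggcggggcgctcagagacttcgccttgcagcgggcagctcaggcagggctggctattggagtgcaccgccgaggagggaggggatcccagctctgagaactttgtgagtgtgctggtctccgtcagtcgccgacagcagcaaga
S1pr3: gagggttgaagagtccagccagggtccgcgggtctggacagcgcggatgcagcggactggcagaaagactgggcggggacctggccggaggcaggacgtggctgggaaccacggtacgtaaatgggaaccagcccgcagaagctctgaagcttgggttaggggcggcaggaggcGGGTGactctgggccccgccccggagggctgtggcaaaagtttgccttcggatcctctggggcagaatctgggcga
Sphk2: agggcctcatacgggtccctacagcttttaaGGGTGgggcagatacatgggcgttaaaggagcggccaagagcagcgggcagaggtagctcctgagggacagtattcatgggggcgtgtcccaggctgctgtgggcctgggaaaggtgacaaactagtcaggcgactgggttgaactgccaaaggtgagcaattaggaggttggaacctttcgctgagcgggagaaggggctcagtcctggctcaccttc
The S1pr1 window held the box in the forward direction, and the S1pr3 and Sphk2 windows held it in reverse. Windows were found for 7 of the 8 members, with 3 alternative windows for Sphk1. The windows of Sgpl1 and all 3 of Sphk1 held the 5 letters on either strand, and those of S1pr2 and Sgpp1 did not. Of all 33469 rat promoter windows of this length, 49.2% held the box on either strand, so a match describes the sequence and is no evidence of binding. CG dinucleotides numbered 14 in the S1pr1 window, 17 in the S1pr3 window and 8 in the Sphk2 window, against a median of 5 over all windows, and Sgpp1 had 29.

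Levels were compared between genes as CPM per kilobase of listed gene length. On this per-length scale S1pr1 had a mean of 165 over the 6 libraries and ranked 536 of all 33566 genes. Spns2 followed at 34.4, Sgpl1 at 27.6 and Sphk2 at 17.5. The lowest members were Sgpp1 at 2.52, S1pr2 at 0.664, Sphk1 at 0.465 and S1pr3 at 0.159. S1pr1 was thus 249-fold above S1pr2 and 1039-fold above S1pr3 in mean level per length.

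Neighbours in this order were mostly separated in every library. The per-length level of Spns2 was 1.25-fold that of Sgpl1 and was the higher of the pair in 6 of 6 libraries, with ranges that did not overlap. Sgpl1 exceeded Sphk2 by 1.57-fold and Sphk2 exceeded Sgpp1 by 6.96-fold, also without overlap. Only S1pr2 and Sphk1 among neighbouring members had overlapping ranges, with S1pr2 higher in 4 of 6 libraries. S1pr4, a receptor known mainly from blood cells, is no member but lay between Sgpp1 and S1pr2 at 1.78 per length. S1pr5, known from oligodendrocytes and natural killer cells, had 0 counts in every Hcy library and at most 4 in a Veh library.

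**Figure D1:**
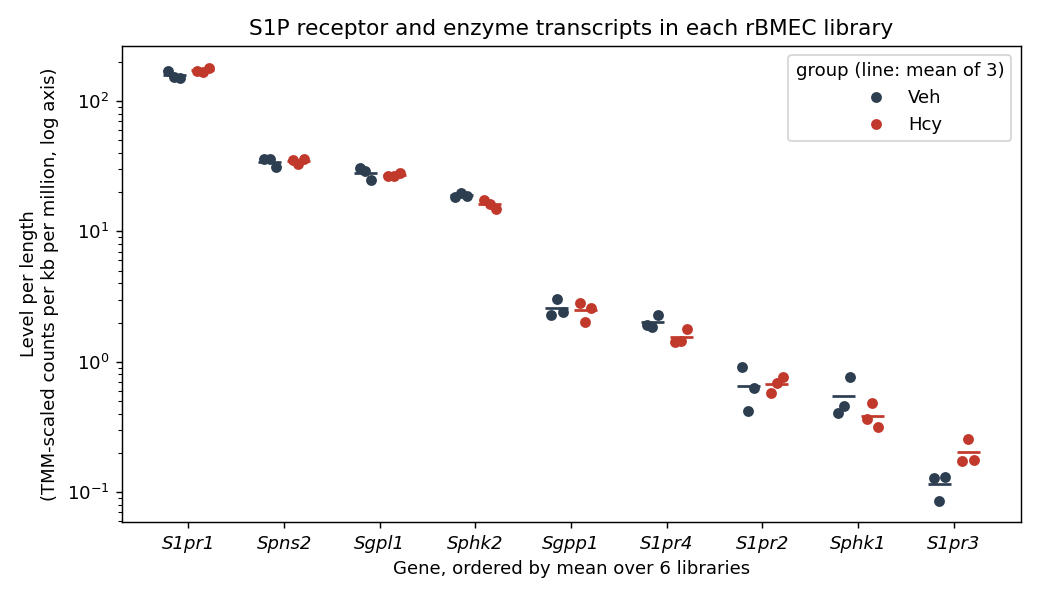
Level per length of each member and of S1pr4 in each library, as CPM per kilobase on a log axis, with points for libraries, lines for group means of 3 and genes ordered by their mean over 6 libraries. S1pr1, at 150 to 181 per length, lies above every other gene plotted in all 6 libraries.

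Among the receptors, S1pr1, the Gi-coupled receptor of endothelial barrier maintenance, was measured deeply, with 5571 to 7779 counts per library. Its level was 434, 430 and 464 CPM in Hcy replicates 1, 2 and 3 and 435, 396 and 386 CPM in Veh. The highest value was Hcy replicate 3, but Veh replicate 1 exceeded the other Hcy libraries, so the groups overlapped. The means were 443 ± 18.7 CPM in Hcy and 406 ± 26.1 CPM in Veh (SD, n = 3 each). The log2 fold change of Hcy over Veh was 0.13 (SE 0.07). Its p was 0.518 by edgeR's quasi-likelihood test after adjustment over all genes tested by the Benjamini-Hochberg method, as for every adjusted p here. As a percent change in Hcy, its 95% interval ran from -2.51% to 22.3%. At this standard error a log2 fold change of 0.34, or 1.26-fold, was needed to pass. Of the 9 endothelial markers tested, 7 had a higher estimate in Hcy, with a median log2 fold change of 0.13, and 0 passed an adjusted p of 0.05. Every Hcy library was above every Veh library for Vwf, Kdr, Flt1 and Tie1 and below for Tek, and such groups without overlap made up 20.1% of all genes tested. A row without a symbol that the table matches to mouse PECAM1 was at 1102 ± 53.6 CPM in Hcy and 869 ± 67.5 CPM in Veh, with every Hcy library higher and an adjusted p of 0.0563 in the same test. The 9 markers summed to 8943 to 9399 CPM in Hcy and 7253 to 8542 CPM in Veh, and their part in the value of S1pr1 was not tested. The count table places S1pr1 (ENSRNOG00000013683) at chr2:218654554-218658761 on the minus strand, in coordinates for which it names no build.

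S1pr2, a receptor that couples to G12/13 proteins, was near the low end of the libraries. Its counts were 22, 28 and 35 in the Hcy group and 42, 18 and 25 in the Veh group, which equals 1.58, 1.88 and 2.09 CPM against 2.49, 1.15 and 1.73 CPM. Both the highest and the lowest library were Veh, and all Hcy libraries lay between them. On the log2 scale the fold change was 0.05 (SE 0.33), with a 95% interval of -0.69 to 0.78 and an adjusted p of 0.974 in edgeR's quasi-likelihood test. A 2.88-fold difference would have been needed to pass at this depth and spread.

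S1pr3, a receptor that couples to Gi, Gq and G12/13 proteins, was the least abundant member. Its counts were 9, 14 and 11 in Hcy and 8, 5 and 7 in Veh. Every Hcy library, at 0.646, 0.940 and 0.656 CPM, was above every Veh library, at 0.475, 0.319 and 0.484 CPM. The groups thus did not overlap, although the raw counts of Hcy replicate 1 and Veh replicate 1 differed by 1. The log2 fold change of 0.80 (SE 0.43) was the largest estimate among the members, equal to a fold of 1.74 with a 95% interval of 0.885 to 3.42. It did not pass, with an adjusted p of 0.490 by edgeR's quasi-likelihood test, and a 4.05-fold difference was needed. S1pr3 was the only member that edgeR's filterByExpr, a stricter filter on low counts, left out.

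For S1pr4 the Hcy libraries had 45, 49 and 68 counts and the Veh libraries 73, 66 and 75. All Hcy libraries were lower, with means of 3.53 ± 0.461 CPM in Hcy and 4.58 ± 0.536 CPM in Veh. Hcy over Veh gave a log2 fold change of -0.37 (SE 0.20), with an adjusted p of 0.481 in edgeR's quasi-likelihood test.

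**Figure D2:**
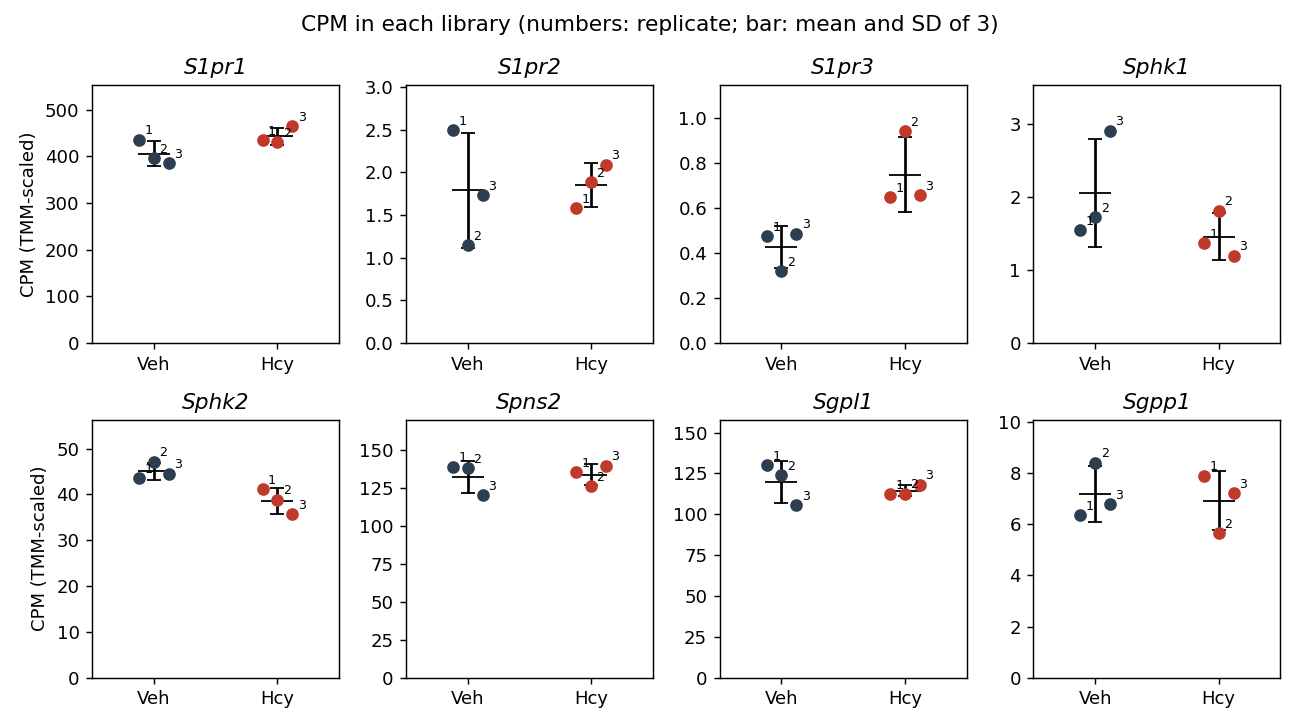
TMM-scaled CPM of each member in each library, with 1 panel per gene, an axis from 0 in each panel, numbered points for replicates and bars for the mean and SD of 3 libraries. The groups are apart only for S1pr3, where Hcy is higher, and Sphk2, where Hcy is lower.

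The sphingosine kinases differed widely in level. Sphk2, the kinase known from the nucleus and mitochondria, had 41.1, 38.8 and 35.6 CPM in Hcy and 43.6, 47.1 and 44.5 CPM in Veh. Every Hcy library was below every Veh library, with the closest values in Hcy replicate 1 and Veh replicate 1. The means were 38.5 ± 2.77 CPM in Hcy and 45.1 ± 1.86 CPM in Veh (SD, n = 3 each). The log2 fold change was -0.23 (SE 0.08), a change of -14.6% in Hcy with a 95% interval of -25.1% to -2.55%. With an adjusted p of 0.260 in edgeR's quasi-likelihood test, Sphk2 did not pass, and it ranked 1356 of 14603 genes by p. A 1.31-fold difference would have been needed. In the table's coordinates Sphk2 (ENSRNOG00000021032) lies at chr1:101692973-101697277 on the minus strand, 127 bases from Dbp, a circadian transcription factor gene with a log2 fold change of -0.11 and an adjusted p of 0.887 in the same test.

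Sphk1, the mainly cytoplasmic kinase that is induced by growth factors in many cells, had counts of 19, 27 and 20 with Hcy and of 26, 27 and 42 with Veh. These equal 1.36, 1.81 and 1.19 CPM in Hcy and 1.54, 1.72 and 2.91 CPM in Veh. Veh replicate 3 was well above the other 5 libraries, and Hcy replicate 2 exceeded both other Veh libraries. The estimate of -0.49 on the log2 scale (SE 0.33) had a 95% interval of -1.24 to 0.26 and an adjusted p of 0.600 in edgeR's quasi-likelihood test. Without Veh replicate 3 it was -0.16. A 2.94-fold difference was needed to pass.

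Spns2, the S1P exporter of endothelial cells, had 136, 126 and 140 CPM in Hcy and 139, 138 and 120 CPM in Veh. The groups overlapped, with Veh replicate 3 lowest and Hcy replicate 2 next above it. Its means were 134 ± 6.93 CPM in Hcy and 133 ± 10.6 CPM in Veh. The estimated log2 fold change was 0.01 (SE 0.08), with a 95% interval of -0.17 to 0.20 and an adjusted p of 0.965 by edgeR's quasi-likelihood test. A 1.31-fold difference would have passed at this standard error. The listed span of Spns2, chr10:59010428-59049482 on the minus strand, overlaps the end of Mybbp1a at chr10:59000397-59010903 on the plus strand. The strand setting of the counting is not given in the sources used here, so reads in the shared stretch cannot be assigned with certainty. Mybbp1a had a log2 fold change of -0.03 and an adjusted p of 0.922 in the same test.

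Of the removing enzymes, Sgpl1 encodes the lyase that cleaves S1P in its last step of breakdown. It had 112, 113 and 118 CPM in Hcy and 130, 124 and 106 CPM in Veh. The Hcy libraries lay close together inside the wider range of the Veh libraries, with SDs of 3.23 and 12.7 CPM around means of 114 and 120 CPM. Its log2 fold change was -0.07 (SE 0.09), with a 95% interval of -0.27 to 0.14 and an adjusted p of 0.829 by edgeR's quasi-likelihood test. It was -0.15 without Veh replicate 3 and -0.0016 without Veh replicate 1. A 1.34-fold difference was needed.

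Sgpp1, a phosphatase of the endoplasmic reticulum that returns S1P to sphingosine, had 7.90, 5.64 and 7.22 CPM in Hcy and 6.35, 8.41 and 6.78 CPM in Veh. The groups interleaved. Its log2 fold change of -0.05 (SE 0.18) had a 95% interval of -0.47 to 0.36 and an adjusted p of 0.944 in edgeR's quasi-likelihood test, and a 1.82-fold difference was needed.

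**Figure D3:**
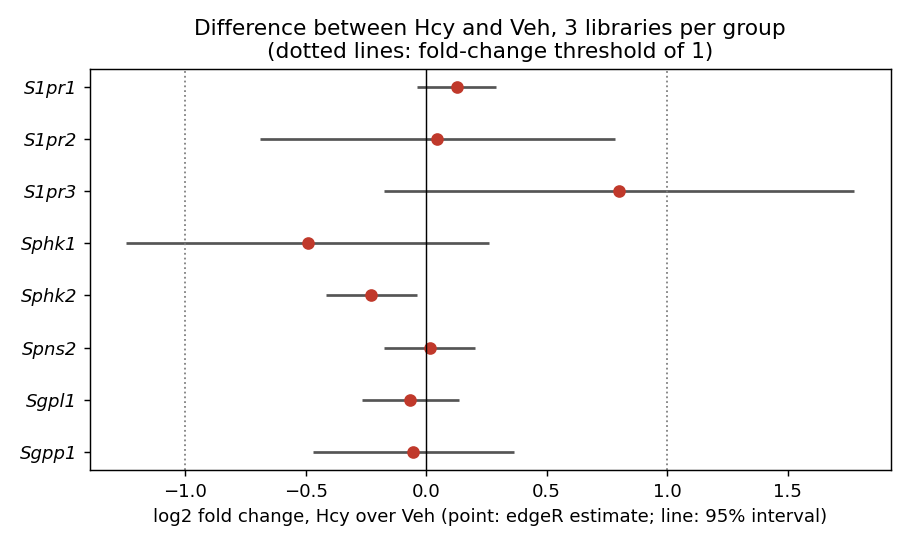
Log2 fold change of Hcy over Veh for each member, with edgeR estimates as points and 95% intervals as lines, and dotted lines at 1 and -1. The intervals of S1pr1, Sphk2, Spns2 and Sgpl1 lie within 0.42 of zero, and those of S1pr3 and Sphk1 extend past a dotted line.

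All 8 members passed the count minimum, and 0 of them were called, which needed an adjusted p of 0.05 or less and a log2 fold change beyond 1 in either direction. Among all genes tested 0.486% were called, 0.253% as higher and 0.233% as lower in Hcy. At an adjusted p of at most 0.05 alone, 0 of the members and 2.34% of all genes passed. That share was 341 genes, a number that ranged from 80 to 957 on leaving out 1 library and was 612 with DESeq2. The counts of members were also 0 with DESeq2 and with limma-voom. At an unadjusted p of at most 0.05 the count was 1 in each of these tools, Sphk2, and 13.4% of all genes tested reached that level with edgeR, 5.95% as lower in Hcy. Groups did not overlap for 2 of the 8 members, against 20.1% of all genes tested, so the members' share was near the background. Of all genes 9.27% had every Hcy library lower, as Sphk2 did, and 10.8% every Hcy library higher, as S1pr3 did. Of the members 4 had a higher and 4 a lower estimate in Hcy, and their median log2 fold change was -0.02, as was the median of all genes tested.

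Over all 6 libraries, S1pr1 and Spns2 had the smallest coefficients of variation of CPM among the members, at 6.78% and 6.02%. S1pr3 and Sphk1 varied most, at 36.4% and 34.6%, which includes any difference between groups. Estimates below about 1.26-fold to 1.34-fold in S1pr1, Sphk2, Spns2 and Sgpl1 would not have passed. True differences of that size, or somewhat larger, could thus have been missed. Far larger ones in S1pr2, S1pr3 and Sphk1 could also have been missed at this depth.

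**Figure D4:**
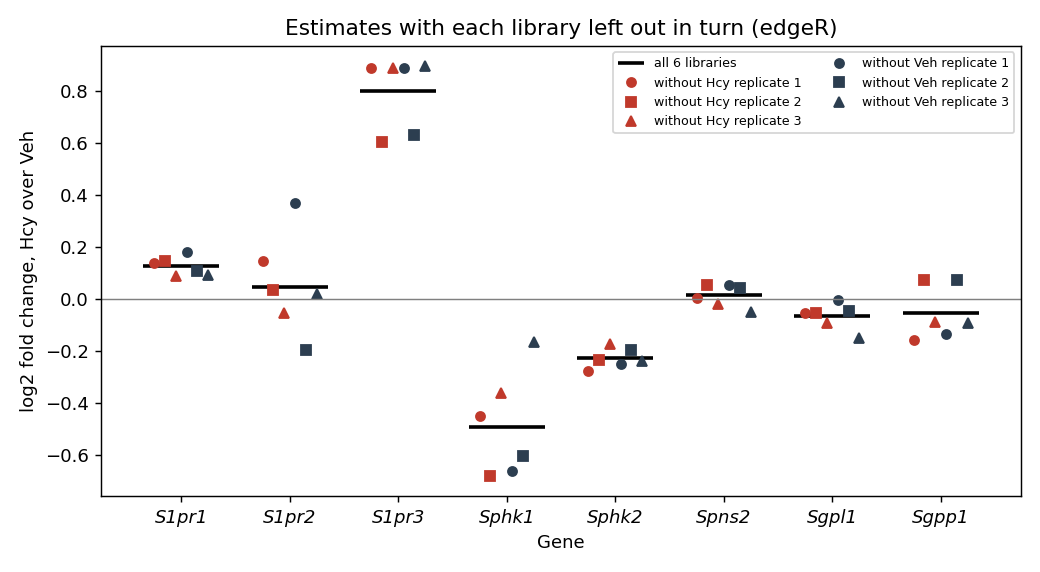
Log2 fold change of Hcy over Veh for each member with all 6 libraries (bars) and with each library left out in turn (red for a missing Hcy library, dark for a missing Veh library). Sphk2 stays between -0.28 and -0.17, while the estimates of S1pr2, Spns2 and Sgpp1 take both signs.

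The mix of transcripts within each step was also compared between groups. S1pr1 made up 99.6%, 99.4% and 99.5% of the summed per-length level of S1pr1, S1pr2 and S1pr3 in Hcy and 99.4%, 99.7% and 99.5% in Veh. The mean of Hcy minus that of Veh was -0.0259 percentage points, with an exact two-sided permutation p of 0.8, and 3 against 3 libraries cannot give a p below 0.1. On leaving out 1 library the difference ran from -0.0905 without Veh replicate 1 to 0.0512 without Veh replicate 2, so it took both signs. When S1pr4 and S1pr5 were included, an alternative added after the levels were seen, the share of S1pr1 was 98.7%, 98.6% and 98.5% in Hcy and 98.3%, 98.5% and 97.9% in Veh. The difference was then 0.383 percentage points, with every Hcy library above every Veh library, and the exact two-sided permutation p was 0.1, the smallest it can be.

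Sphk1 supplied 2.05%, 2.86% and 2.07% of the summed per-length level of the kinases in Hcy and 2.18%, 2.25% and 3.95% in Veh. Sphk2 was therefore the source of nearly all kinase transcript in every library. The mean of Hcy minus that of Veh was -0.47 percentage points, with an exact two-sided permutation p of 0.5, and it was 0.109 without Veh replicate 3. The per-length level of both kinases divided by that of Sgpl1 and Sgpp1 was 0.562 in Hcy and 0.634 in Veh as geometric means. On the log2 scale the libraries were at -0.73, -0.77 and -0.99 in Hcy and at -0.82, -0.67 and -0.49 in Veh, with overlapping groups and an exact two-sided permutation p of 0.3. The log2 difference of -0.17 was -0.091 without Veh replicate 3 and -0.25 without Veh replicate 1.

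Other genes of sphingolipid metabolism and S1P signalling were read from the same fit. Of 89 listed genes, 76 were tested, and 0 rose while 4 fell at an adjusted p of at most 0.05 in edgeR's quasi-likelihood test. Over all genes tested, 1.32% rose and 1.01% fell at this threshold. The median log2 fold change of the 76 was -0.02. The genes that fell were Plpp3, Klf2, Klf4 and Ankrd1, and 0 of the 76 were called. Of these 4, Klf2, Klf4 and Ankrd1 came from the list of 5 KLF and YAP response genes. Plpp3 was the only gene of the other lists that fell. On leaving out 1 library, the number of listed genes that fell was 1 without any of the Hcy libraries, 2 without Veh replicate 1 and 8 without Veh replicate 3.

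Plpp3, a cell surface phosphatase that dephosphorylates S1P and lysophosphatidic acid, was at 22.7, 23.2 and 22.4 CPM in Hcy and 34.4, 32.2 and 28.7 CPM in Veh. It fell by 0.48 on the log2 scale (SE 0.10), with an adjusted p of 0.0386 by edgeR's quasi-likelihood test. Plpp3 no longer passed on leaving out any single library other than Veh replicate 3, with adjusted p of 0.122 to 0.199 in that test. Among the other 6 tested genes for the supply or removal of S1P, 0 passed. Sgpp2, the second S1P phosphatase, had 0.418 ± 0.194 CPM in Hcy and 0.970 ± 0.330 CPM in Veh, with an adjusted p of 0.338.

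The list of KLF and YAP response genes, like the others, was chosen with earlier results of these data known. In it, 5 of 5 tested genes had a lower mean in Hcy and 3 fell, with a median log2 fold change of -0.52. Among all genes tested, 7749 of 14603 had a lower estimate in Hcy and 1.01% fell at an adjusted p of at most 0.05. Klf2 and Klf4 are flow-responsive transcription factors of endothelium, and Klf2 is known to raise S1pr1 transcription. Klf2 was at 38.1, 35.9 and 37.1 CPM in Hcy and 56.4, 49.4 and 53.7 CPM in Veh, and it fell by 0.52 on the log2 scale (SE 0.08), with an adjusted p of 0.0129 by edgeR's quasi-likelihood test. Klf4 was at 16.5, 19.5 and 21.6 CPM in Hcy and 38.5, 37.0 and 36.3 CPM in Veh, and it fell by 0.95 (SE 0.11), with an adjusted p of 0.00415 in that test. For both, every Hcy library was below every Veh library. S1pr1 had a higher mean in Hcy and overlapping groups, and a link of Klf2 or Klf4 to its level was not tested.

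Ankrd1, a target of the coactivator YAP, which S1P receptors can activate, had 196 ± 7.19 CPM in Hcy and 289 ± 26.7 CPM in Veh. It fell by 0.56 on the log2 scale (SE 0.08), with an adjusted p of 0.0114 by edgeR's quasi-likelihood test. The YAP targets Ccn1 and Ccn2 had log2 fold changes of -0.13 and -0.21, with adjusted p of 0.594 and 0.224, and did not pass. Klf4 passed on leaving out any single library. Klf2 and Ankrd1 no longer passed on leaving out any 1 of the Hcy libraries, nor did Klf2 without Veh replicate 1. In these fits the adjusted p in the same test was 0.0584 to 0.0825 for Klf2 and 0.0565 to 0.0825 for Ankrd1. Of the 5 smooth muscle markers, Acta2, Tagln and Cnn1 fell in the same libraries, by 0.64, 0.88 and 1.39 on the log2 scale, while Myh11 and Des, at -0.04 and 0.55, did not pass. Of the 8 pericyte markers, 6 had a higher estimate in Hcy, with a median log2 fold change of 0.67 and 0 past an adjusted p of 0.05. They summed to 4.77 to 7.45 CPM in Hcy and 3.68 to 4.84 CPM in Veh. Of the 5 fibroblast markers 3 were tested and 0 passed, with sums of 35.7 to 57.8 CPM in Hcy and 57.5 to 83.9 CPM in Veh. Col1a1, the most abundant of them, was at 48.0 CPM in Hcy and 68.9 CPM in Veh with every Hcy library lower. The part of these markers in the results was not tested.

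**Figure D5:**
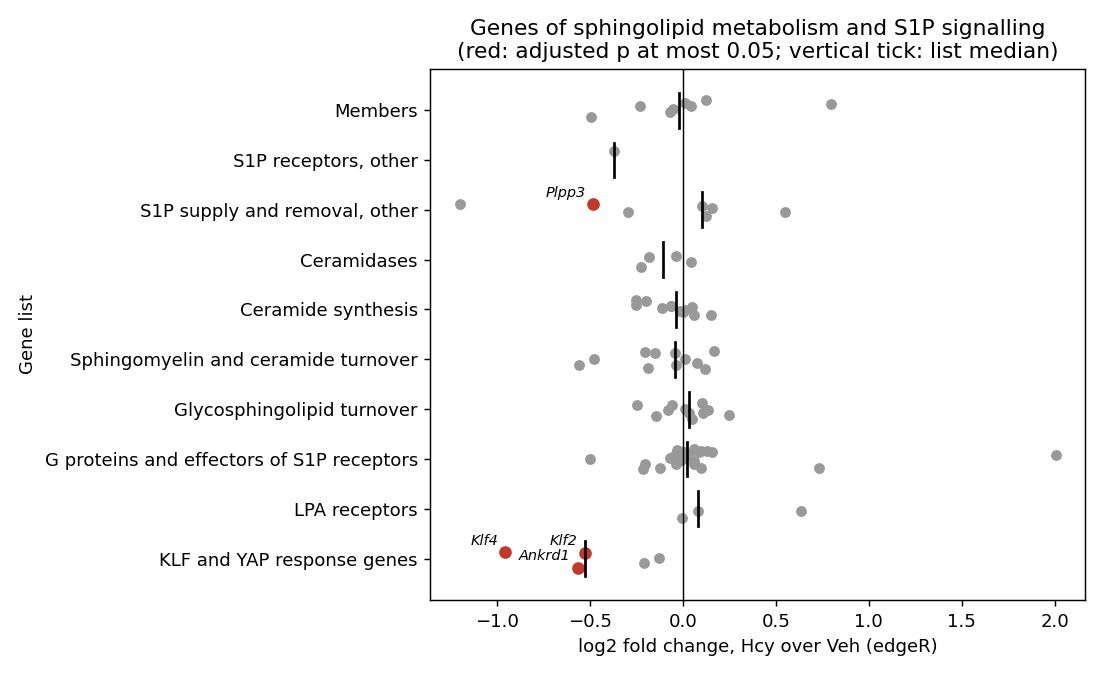
Log2 fold change of Hcy over Veh for the tested genes of each list, with points for genes, vertical ticks for list medians and red points for genes with an adjusted p of at most 0.05. Only Plpp3, Klf2, Klf4 and Ankrd1 are red, all below zero, and no member is red.

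In the remaining lists 0 genes passed in either direction. The ceramidases, which release sphingosine from ceramide, had a median log2 fold change of -0.11 over 4 tested genes, and -0.062 without Veh replicate 2. Their main lysosomal member Asah1 was at 189 ± 6.81 CPM in Hcy and 220 ± 10.6 CPM in Veh, with an adjusted p of 0.175 in edgeR's quasi-likelihood test, and its listed position overlaps Pcm1. Acer2, a Golgi ceramidase, had a log2 fold change of -0.18 and an adjusted p of 0.525.

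For ceramide synthesis the median over 12 tested genes was -0.04, and -0.010 without Veh replicate 1. Kdsr and Sptlc2, enzymes of the early steps that make sphingoid bases, both had log2 fold changes of -0.25, with adjusted p of 0.147 and 0.240 in edgeR's quasi-likelihood test. Every Hcy library was below every Veh library for both.

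Sphingomyelin and ceramide turnover had a median of -0.04 over 11 tested genes, and -0.11 without Veh replicate 3. Smpd3, a neutral sphingomyelinase, was at 10.7 ± 1.39 CPM in Hcy and 15.0 ± 0.703 CPM in Veh, with an adjusted p of 0.113 in edgeR's quasi-likelihood test. Sgms2, a sphingomyelin synthase, had a log2 fold change of -0.56 and an adjusted p of 0.249, and in CPM its Veh replicate 3 lay among the Hcy libraries. Without Veh replicate 3 both Sgms2 and Asah1 passed, with adjusted p of 0.00665 and 0.0263 in the same test.

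Glycosphingolipid turnover had a median of 0.03 over 11 tested genes, which was -0.045 without Hcy replicate 3 and 0.071 without Hcy replicate 2. Ugcg, which makes glucosylceramide and whose listed position overlaps Susd1, had a log2 fold change of -0.24 and an adjusted p of 0.345 in edgeR's quasi-likelihood test, and -0.13 without Veh replicate 2. Psap, the precursor of the saposins, had 0.14 and an adjusted p of 0.404.

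The 22 G proteins and effectors of the receptors were all tested and had a median log2 fold change of 0.02, which was -0.02 without Veh replicate 3. Gnai2, a Gi subunit, was the most abundant of them in CPM, at 2441 ± 93.2 in Hcy and 2341 ± 176 in Veh, with an adjusted p of 0.796 in edgeR's quasi-likelihood test. The smallest p in this list belonged to the phospholipases Plcb2 and Plcb1, with adjusted p of 0.458 and 0.523. Plcb2 was at 0.192 CPM in Hcy and 0.0429 CPM in Veh, under or near the level of 3 counts, and its listed position overlaps another gene. Of the receptors for the related lipid lysophosphatidic acid, 3 of 6 were tested, and Lpar1 and Lpar4 had adjusted p of 0.791 and 0.901. Lpar6 was the most abundant of these in CPM, at 116 ± 4.98 in Hcy and 116 ± 9.45 in Veh.

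The genes whose log2 CPM was most like each member's over the 6 libraries were listed by Pearson r, as a description of these libraries only, since the libraries share depth and group and the highest of many candidates is high by selection. For S1pr1 these were F2r, Btg2 and Tnks1bp1, with r of 0.985 to 0.976. For S1pr2 they included Cbarp and Zfp385a, with r of 0.964 and 0.960. For S1pr3 they were Bard1, Pcnt and Sh3gl1, with r of 0.993 to 0.984.

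Among the enzymes, Sphk1 was most like Ttc1, Timm10 and LOC108348175, with r of 0.994 to 0.991, and Sphk2 most like Klhl21, Glis2 and Socs3, with r of 0.991 to 0.983. Spns2 was followed most closely by Fzd5, Rpusd3 and Kif26a, with r of 0.976 to 0.974. Sgpl1 was most like Fbrs, Brat1 and Pip5k1a, with r of 0.997 to 0.992, and Sgpp1 most like Ttc9, LOC103690019 and Pdcd4, with r of 0.979 to 0.967. No gene named here was listed for more than 1 member.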

How the data were processed

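The deposited count table holds whole-number read counts per gene for 6 libraries, with gene positions and lengths, which the authors made from poly(A)-selected RNA. The submitters' processing notes name fastp, HISAT2 2.2.1, StringTie 2.2.3, Cufflinks, featureCounts 2.0.6 and DESeq2 1.42.0, with the builds mRatBN7.2 and rn7, but not which of these made the counts. The table names no build, so positions are given as listed. A second deposited table holds the authors' own comparison (normalized values, log2 fold changes and p-values) and was not used.

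Groups followed the library titles. The members and gene lists were chosen with earlier results of these data known. Genes with at least 10 counts over the 6 libraries were tested with edgeR 4.0.16 (quasi-likelihood test, TMM factors of 0.977 to 1.02) in R 4.3.3, and p-values were adjusted over all 14603 genes by the Benjamini-Hochberg method. Called genes had an adjusted p of 0.05 or less and a log2 fold change of 1 or more in either direction. CPM values and per-length levels are TMM-scaled, with SD over 3 libraries. Shares and ratios were compared by exact permutation tests. The 95% intervals cover the spread between these libraries.

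Named genes were all members, the genes of each list that passed or had the 2 smallest p, genes overlapping a member, and the 3 genes most like each member among those with a mean of at least 1 CPM. Dbp, S1pr5, Ccn1, Ccn2, Gnai2 and Lpar6 were named after their values were seen. Of the genes most like a member, 1 is not reported here. Sequences came from RefSeq's GRCr8 promoters. Alternatives were DESeq2 1.42.0, limma-voom (limma 3.58.1), other scalings, filters and prior counts, protein-coding genes alone, a replicate block, and leaving out each library. The test code was checked on simulated data.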

Additional observations from a re-analysis of the deposited data

How the results depend on the processing

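No member passed an adjusted p of 0.05 under any alternative run, DESeq2's NA for S1pr3 aside. The smallest adjusted p of a member was 0.130, for Sphk2 without Veh replicate 3. At an unadjusted p of at most 0.05, 0 members remained without Hcy replicate 2, Hcy replicate 3 or Veh replicate 2, S1pr1 stood beside Sphk2 without Veh replicate 1, and Sgpl1 stood beside Sphk2 without Veh replicate 3. Estimates near zero changed sign on leaving out a library. S1pr2 was at -0.05 without Hcy replicate 3 and -0.19 without Veh replicate 2, with a range of -0.19 to 0.37. Sgpp1 was at 0.07 without either Hcy replicate 2 or Veh replicate 2, with a range of -0.16 to 0.074. Spns2 was at -0.02 without Hcy replicate 3 and -0.050 without Veh replicate 3, with a range of -0.050 to 0.055. Sgpl1 ranged from -0.15 to -0.0016, and Lpar4 was at -0.11 without Hcy replicate 3. The Hcy minus Veh difference in the share of S1pr1, -0.0259 percentage points, ranged from -0.0905 to 0.0512 and turned to 0.383 with S1pr4 and S1pr5 included, and that of the share of Sphk1 ranged from -0.78 to 0.109.

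Over all genes, DESeq2 gave 612 genes at the adjusted p alone (350 higher and 262 lower in Hcy), and a minimum of 1 count gave 109 called genes (57 higher, 52 lower). On leaving out each library, called genes numbered 39 to 112 (22 to 58 higher, 15 to 54 lower) and those at the adjusted p alone 80 to 957 (46 to 500 higher, 31 to 457 lower), in each case most without Veh replicate 3. The pathway genes that fell numbered 1 to 8. List medians ranged from -0.14 to -0.062 for ceramidases, -0.11 to -0.033 for sphingomyelin and ceramide turnover, -0.045 to 0.071 for glycosphingolipid turnover, -0.020 to 0.18 for receptors of lysophosphatidic acid, 0.037 to 0.11 for S1P supply and removal, -0.043 to -0.010 for ceramide synthesis and -0.023 to 0.049 for G proteins and effectors. These fits hold fewer libraries, and other causes were not tested.

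Same-numbered Hcy and Veh libraries correlated at 0.0237, 0.166 and 0.0581 in their deviations from the group means, so the numbers were not taken to pair them. With a replicate block, 298 genes passed the adjusted p alone and 82 were called, against 341 and 71 without it. Sphk2 was at -0.23 with an adjusted p of 0.313, and Plpp3 at -0.48 with an adjusted p of 0.0562, the only call the block changed among the members and named pathway genes.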
